A study of Mus musculus with 18 samples.

Results

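Amino acids and the transmitters made from them cross cell membranes through solute carriers, and the genes described here are those of 9 Slc subfamilies (Slc1, Slc3, Slc6, Slc7, Slc17, Slc32, Slc36, Slc38 and Slc43). They were found by symbol among probe sets with exactly 1 gene symbol on the 3 chips of an Affymetrix mouse array series, chips A, B and C. The search matched 64 of 15964 measured genes, with 121 of 29131 probe sets, and each gene was read by its brightest probe set. Of the 64, Slc7a6os is named only for its place opposite Slc7a6 and is not a carrier, and several Slc17 members are known as phosphate or organic anion carriers.

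Both populations came from the retinas of FVB/N mice at postnatal day 8, all homozygous for a transgene in which the Tie2 promoter, active in endothelium, drives GFP. Retinas were pooled and dissociated with papain. GFP-positive cells, taken as endothelium, were sorted from GFP-negative cells, the rest of the retina. RNA of each population was amplified, labelled with biotin and read on 3 arrays per chip, 18 arrays in all. GFP-negative cells are a mixture of neurons and glia, Tie2 is also active in some blood-derived cells, and a lower signal from fewer cells of a type cannot be told apart from less RNA per cell. The labels do not say that the 3 arrays come from separate animals or sorts, so p-values measure the spread between arrays, which may be technical.

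Amino acid carriers work in a few modes. Exchangers such as the large neutral carrier LAT1 pair a light chain of the Slc7 family with a heavy chain of the Slc3 family and swap 1 amino acid for another, whereas sodium-coupled carriers of the Slc1, Slc6 and Slc38 families concentrate their substrates. In the retina, Müller glia and astrocytes clear glutamate and GABA from synapses and return glutamine to neurons, and vesicular carriers load transmitter into synaptic vesicles. At the blood-retina barrier, endothelial carriers bring amino acids from blood to tissue.

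Array medians lay between 32.5 and 44.5 intensity units, and the number of arrays limited the precision. GFP-positive replicate 3 stood apart, with Spearman rank correlations of 0.911 to 0.929 with replicates 1 and 2 across probe sets, against 0.960 to 0.987 for all other pairs within a population. It was at least 2-fold outside the range of those replicates for 7.74% of all genes and for 1 of the 64, Slc3a1. Of 13 endothelial markers 9 were higher in GFP-positive cells and none lower, while Kdr and Pecam1 were among the 4 that did not pass. Of 11 Müller glia markers 8 were lower. Their summed level was 1410 to 2400 on the GFP-positive arrays against 6160 to 10000 on the GFP-negative arrays.

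In GFP-positive cells 12 of the 64 genes were higher (18.8%, where 9.83% of all genes were) and 9 were lower (14.1%, where 11.9% of all genes were), at an adjusted p under 0.05 (limma, Benjamini-Hochberg within the chip). The median difference over the 64 was 0.10, against 0.04 over all genes. Differences throughout are GFP-positive minus GFP-negative and are given as log2 of intensity with 16 added, which shrinks the change of dim probe sets. For 20 genes every GFP-positive array was brighter than every GFP-negative array (31.2%, against 22.2% of all genes) and for 13 every one was dimmer (20.3%, against 19.2%). Of the 64 genes 18 were dim, with both population means below the median probe set of their chip, and none of these passed, although 4 of them (Slc17a2, Slc38a10, Slc43a3 and Slc32a1) are among the genes without overlap. Of the 21 calls, 16 held without each array in turn, and all 21 held without GFP-positive replicate 3. Without that array the counts were 16 higher and 13 lower.

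**Figure D1:**
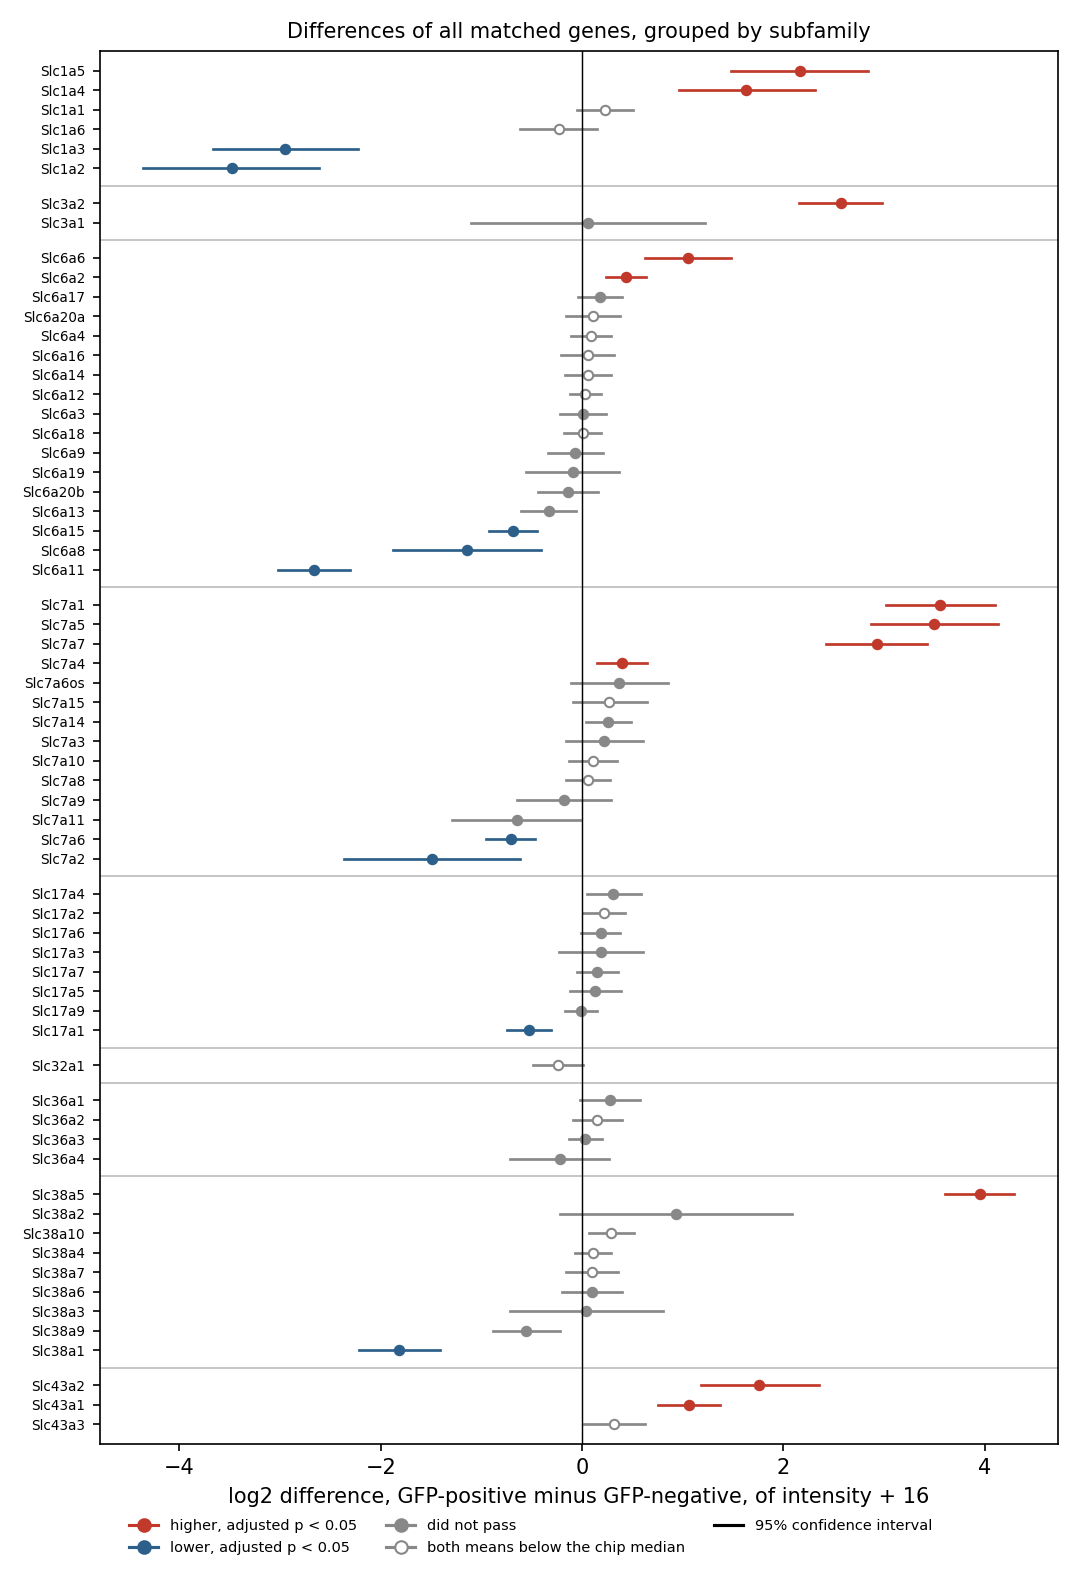
The x axis gives the log2 difference of intensity plus 16, GFP-positive minus GFP-negative, of each of the 64 genes by its brightest probe set, with the genes on the y axis grouped by subfamily; points are the fitted differences of 3 against 3 arrays and lines are 95% confidence intervals. The differences run from -3.48 for Slc1a2 to 3.95 for Slc38a5, and the Slc17, Slc32 and Slc36 genes lie between -0.53 and 0.31.

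Both chains of LAT1, an exchanger of large neutral amino acids such as leucine and phenylalanine, were higher in GFP-positive cells. Slc7a5, the light chain, read 1462, 916 and 1823 on the GFP-positive arrays and 119.5, 91.1 and 104.2 on the GFP-negative arrays. Its difference was 3.50 (SE 0.26, adjusted p = 0.000517), and the lowest GFP-positive array was several times brighter than the highest GFP-negative one. Slc3a2, the heavy chain 4F2hc that carries LAT1 to the cell surface, read 1146, 1554 and 1373 against 265, 186 and 199, a difference of 2.57 (SE 0.17, adjusted p = 0.000359). By these probe sets both partners of the heterodimer were therefore bright in the same population and did not overlap with the other. A second Slc3a2 probe set, on chip C, was 38.3 against 29.9 with overlap and did not pass (0.24, adjusted p = 0.260).

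Slc43a1 and Slc43a2 of the Slc43 family move large neutral amino acids without a heavy chain. Slc43a2, known as LAT4, read 2184, 1657 and 1670.1 against 356, 637 and 635, and was higher by 1.76 (SE 0.25, adjusted p = 0.00331). It was bright in both populations and its arrays did not overlap. Slc43a1, known as LAT3, was 92.2 ± 9.35 against 36.1 ± 6.94 (mean intensity ± SD, n = 3 arrays each) and was higher by 1.06 (adjusted p = 0.00196). Slc43a3 was dim at 13.1, 8.13 and 10.3 against 2.45, 5.40 and 7.98 and did not pass (0.32, adjusted p = 0.183), although its arrays did not overlap. Slc7a8, the LAT2 light chain, was also dim and did not pass (0.06, SE 0.09). The other heavy chain, Slc3a1 or rBAT, read 55.2, 56.1 and 218 against 77.7, 95.02 and 86.2. Its bright array was GFP-positive replicate 3. The difference was 0.06 (SE 0.47, adjusted p = 0.955) with that array and -0.51 (adjusted p = 0.0135) when it was left out.

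The cationic amino acid carriers take up arginine and lysine, and they were divided. Slc7a1, or CAT1, read 802, 566 and 514 on the GFP-positive arrays against 37.0, 26.5 and 51.8. Its difference of 3.56 (SE 0.23, adjusted p = 0.000128) was close to that of Slc7a5, and which of them was larger depended on the pseudocount and the arrays used. The GFP-negative mean of Slc7a1, 38.5, lay below the median probe set of its chip, and its difference was 2.74 with a pseudocount of 64 and 4.02 with a pseudocount of 1. Slc7a2, or CAT2, went the other way, at 18.3, 15.7 and 19.6 against 159.6, 64.6 and 45.1. The GFP-negative arrays of Slc7a2 were widely spread but all above the GFP-positive ones (-1.49, SE 0.36, adjusted p = 0.0309). Omitting GFP-positive replicate 1 ended the call (adjusted p = 0.0678), as did omitting GFP-positive replicate 2 (adjusted p = 0.0908) and omitting GFP-negative replicate 2 (adjusted p = 0.0727). Slc7a3, or CAT3, did not pass (0.22, SE 0.16).

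Slc7a7 and Slc7a6 are the light chains y+LAT1 and y+LAT2, which pair with Slc3a2 and export cationic in exchange for neutral amino acids. Slc7a7 read 237, 407 and 355 against 34.7, 27.7 and 24.9, a difference of 2.93 (SE 0.21, adjusted p = 0.000466). Slc7a6 read 41.1, 30.25 and 30.95 against 65.25, 65.72 and 65.85, a difference of -0.71 (SE 0.10, adjusted p = 0.00539). These paralogs lay in opposite directions, each without overlap between populations. Slc7a7 is also well known from macrophages. Of 10 microglia and leukocyte markers 2 were higher in GFP-positive cells (20.0%, against 9.83% of all genes), Lcp1 and C1qb, and none lower. The summed level of the 10 was 1260 to 2570 against 389 to 426, most of it from Lcp1, and from Csf1r on GFP-positive replicate 3. For 3 of the 10, Lcp1, C1qb and C1qa, every GFP-positive array was brighter than every GFP-negative array (30.0%, against 22.2% of all genes). C1qa (0.16) did not pass, nor did Cd68 (0.28) and Csf1r (0.24), which overlapped. Ptprc, which encodes CD45, was 29.3, 34.3 and 56.7 against 34.5, 41.8 and 37.6, and Cx3cr1, Aif1, Itgam and Tyrobp differed by at most 0.03 either way. No marker of the list was at 0, and the part of such cells in the Slc7a7 result was not tested.

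Of the remaining Slc7 genes 1 passed. In the whole family 4 of 14 genes were higher and 2 lower (28.6% and 14.3%, against 9.83% and 11.9% of all genes). Slc7a4 was 65.3 ± 4.40 against 45.9 ± 5.31 and was higher (0.40, adjusted p = 0.0369). That call ended when any array other than GFP-positive replicate 3 was left out, with adjusted p from 0.0596 to 0.115. Slc7a14, a lysosomal carrier known from photoreceptors, read 93.3, 88.9 and 73.7 against 67.5, 67.7 and 69.0 and did not pass (0.26, adjusted p = 0.147). The arrays of Slc7a14 did not overlap, and leaving out GFP-positive replicate 3 brought it past the threshold (0.35, adjusted p = 0.0148). Another Slc7a14 probe set, on chip B and not dim, went the opposite way. It was 34.1 against 59.5 without overlap and did not pass (-0.56, adjusted p = 0.0908). Slc7a11, the cystine and glutamate exchanger xCT, was 26.7 ± 14.1 against 48.6 ± 7.22, a difference of -0.65 that missed the threshold (adjusted p = 0.135). Slc7a9, Slc7a10 and Slc7a15 did not pass, with differences of -0.18 to 0.27, but Slc7a9 passed as lower without GFP-positive replicate 3 (-0.39, adjusted p = 0.025).

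Among sodium-coupled carriers of the Slc38 family, 1 of 9 genes was higher and 1 lower. These shares, 11.1% each, were close to the 9.83% and 11.9% of all genes. Slc38a5, or SNAT5, which moves glutamine, glycine and serine and can run in both directions, read 928, 1009 and 1334 against 57.0, 54.3 and 53.4. Its difference of 3.95 (SE 0.14, 95% confidence interval 3.60 to 4.29, adjusted p = 4.65e-05) was the largest rise of the set. The mean intensity was 19.9-fold higher in GFP-positive cells. Slc38a3, or SNAT3, its close relative and a glutamine carrier of glia, read 190.1, 318 and 355 against 385, 283 and 181. The populations overlapped over nearly their whole range, and the difference was 0.04 (SE 0.32, 95% confidence interval -0.72 to 0.80). The interval spans differences in either direction and lies wholly below that of Slc38a5.

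Slc38a1, or SNAT1, a glutamine carrier of neurons, was the Slc38 gene that was lower. It read 90.8, 63.0 and 84.5 against 354, 348 and 258, a difference of -1.82 (SE 0.17, adjusted p = 0.000598) with no overlap. Slc38a2, or SNAT2, which cells raise when amino acids run short, was among the brightest of the set at 3333, 4956 and 1704 against 1494, 1052 and 2532. GFP-positive replicate 3 and GFP-negative replicate 3 overlapped, and it did not pass (0.93, SE 0.47, adjusted p = 0.294). When GFP-positive replicate 3 was omitted, Slc38a2 passed (1.35, adjusted p = 0.0438). Dimmer Slc38a2 probe sets on chips A and B gave 0.94 (adjusted p = 0.112) and 1.10 (adjusted p = 0.0588) with no overlap between populations, and the 4 remaining probe sets, all dim, gave -0.17, -0.15, 0.07 and -0.06. Slc38a9, the lysosomal arginine sensor, was 80.9 ± 9.73 against 127 ± 22.6, a difference of -0.56 that missed the threshold (adjusted p = 0.0625) with no overlap between populations. It passed when GFP-positive replicate 3 was omitted (-0.49, adjusted p = 0.0491), with adjustment over the 3 chips (adjusted p = 0.0429), with median-centred arrays (-0.58, adjusted p = 0.0496) and with array weights (-0.42, adjusted p = 0.0278). No other Slc38a9 probe set passed, and all of them overlapped between populations. Another on chip C was 95.7 against 94.0 (0.01), and the rest, all dim, gave -0.23, -0.23 and 0.14. Slc38a4, Slc38a6, Slc38a7 and Slc38a10 differed by 0.10 to 0.29 and did not pass, though Slc38a10 passed as higher with array weights (0.35, adjusted p = 0.0235).

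Of the 6 Slc1 genes 2 were higher and 2 lower (33.3% each, against 9.83% and 11.9% of all genes), and 2 did not pass. Both neutral amino acid exchangers were the higher genes. Slc1a4, or ASCT1, read 1438, 867 and 984 against 396, 232 and 405, a difference of 1.63 (SE 0.28, adjusted p = 0.0111). Slc1a5, or ASCT2, a glutamine carrier of dividing cells, read 1289, 2093 and 973 against 255, 334 and 305, a difference of 2.16 (SE 0.28, adjusted p = 0.00715). Neither gene overlapped between populations.

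Of the 4 glutamate carriers Slc1a2 and Slc1a3 were lower. Slc1a2, or GLT-1, read 91.2, 180.0 and 54.5 on the GFP-positive arrays against 990.2, 1399 and 1437. Its difference of -3.48 (SE 0.37, adjusted p = 0.00101) exceeded that of Slc1a3, except without GFP-positive replicate 3 (-3.14 against -3.19), with array weights (-3.07 against -3.10) and on the first chip that holds the gene. Slc1a3, or GLAST, the glutamate carrier of Müller glia, read 32.6, 34.1 and 66.2 against 623, 429 and 308, a difference of -2.95 (SE 0.30, adjusted p = 0.000897). Of the 11 Müller glia markers 8 were lower too, with Dkk3 (-4.75) and Rlbp1 (-4.38) the furthest. Glul (1.03), Hes1 (0.19) and Vim (-0.13) of that list did not pass. Of 3 measured bipolar cell markers 1 was lower, Prkca (-3.77, adjusted p = 0.000994), while Pcp2 (-0.81) and Trpm1 (-0.11) did not pass. The part of the cell mixture in the differences of Slc1a2 and Slc1a3 was not tested. Slc1a1, the neuronal carrier EAAC1, and Slc1a6, EAAT4, were dim. Slc1a6 read 27.6, 30.3 and 44.3 against 36.9, 51.1 and 39.9 and did not pass (-0.23, SE 0.16), and Slc1a1 did not pass either (0.23, SE 0.12), except as higher without GFP-positive replicate 3 (0.34, adjusted p = 0.0257) and with array weights (0.35, adjusted p = 0.0157).

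**Figure D2:**
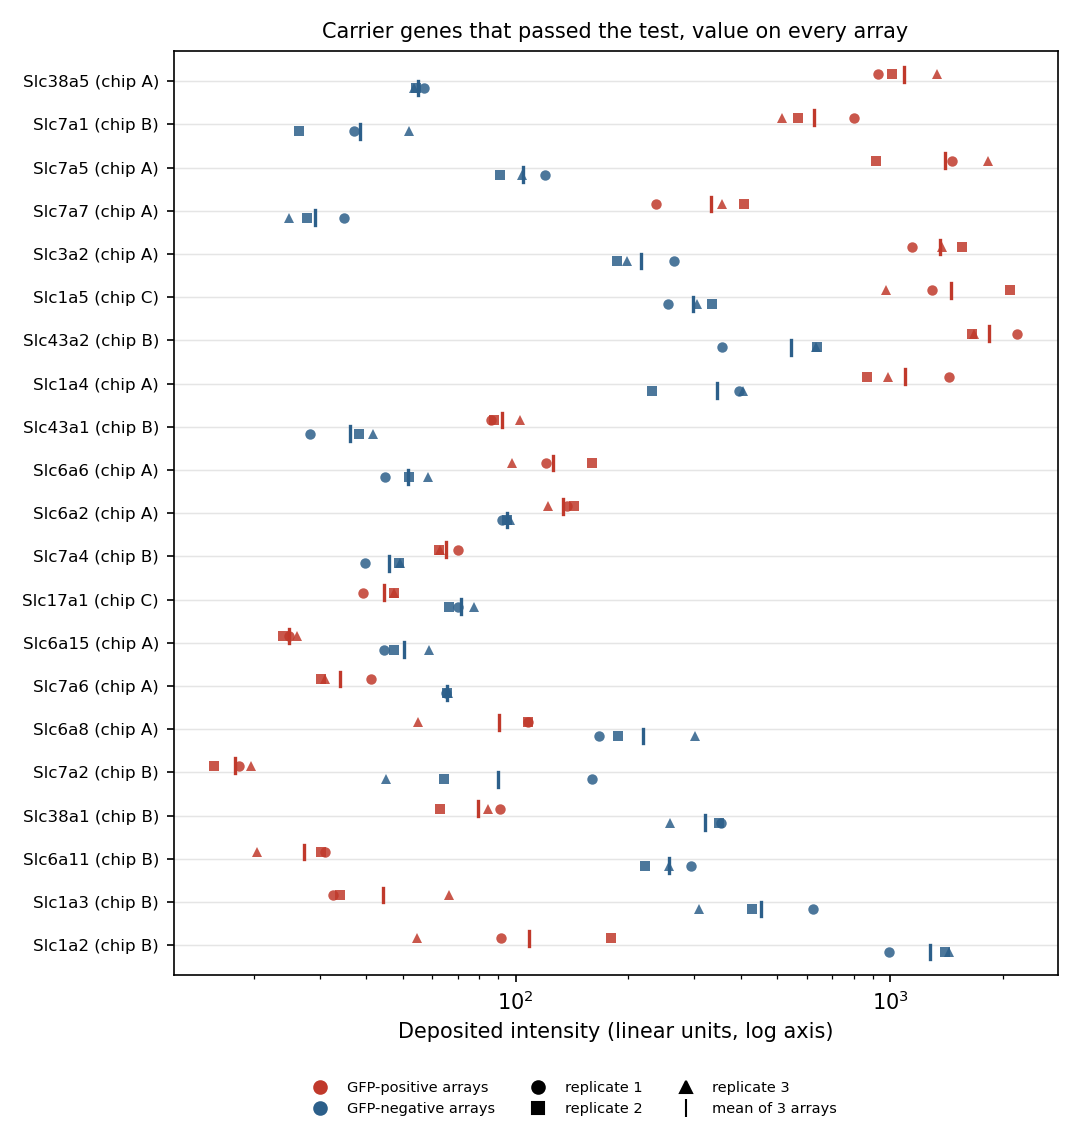
Intensity on every array (log axis) is shown for the 21 genes that passed, ordered by difference, with the brightest probe set's chip after the symbol; symbols are single arrays by replicate number, and bars are means of 3 arrays. The populations do not overlap for any of them, from Slc38a5 at the top to Slc1a2 at the bottom, and levels should be compared only within a gene.

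The Slc6 family takes up transmitters, taurine, creatine and neutral amino acids with sodium and chloride. Of its 17 genes 2 were higher and 3 lower (11.8% and 17.6%, against 9.83% and 11.9% of all genes). Slc6a11, the GABA carrier GAT3 of glia, read 30.9, 30.3 and 20.4 against 294, 222 and 256. It was lower by the widest margin of the family (-2.66, SE 0.15, adjusted p = 7.77e-05), and the mean intensity was 9.46-fold higher in GFP-negative cells. Slc6a15, a neutral amino acid carrier of neurons, read 24.8, 23.9 and 26.1 against 44.7, 47.5 and 58.7 (-0.69, SE 0.10, adjusted p = 0.00548). Slc6a8, the creatine carrier, read 107.8, 108.1 and 55.0 against 167, 187 and 301. Its arrays did not overlap, but the call was narrow (-1.14, SE 0.30, adjusted p = 0.0499). Leaving out GFP-positive replicate 3 kept the call (-0.88, adjusted p = 0.0479), and leaving out any of the other 5 arrays ended it, with adjusted p from 0.0642 to 0.138. The 2 other Slc6a8 probe sets, both dim, did not pass. They gave -0.05 with overlap and 0.26, the opposite direction, without overlap.

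Slc6a6, the taurine carrier TauT of the blood-retina barrier, was 126 ± 31.5 on the GFP-positive arrays against 51.8 ± 6.82 and was higher (1.05, SE 0.18, adjusted p = 0.0105). Slc6a2, the noradrenaline carrier, was 134 ± 11.1 against 94.7 ± 2.51 (0.44, adjusted p = 0.0144), a small rise. Its call ended when GFP-positive replicate 2 or any GFP-negative array was left out, with adjusted p from 0.0502 to 0.0624. Slc6a17, a vesicular carrier of neutral amino acids in neurons and the brightest Slc6 gene that did not pass, read 182, 185 and 224 against 170.1, 174 and 170.2. The difference was 0.18 (SE 0.09) although the populations did not overlap. Slc6a9, the glycine carrier GlyT1 of amacrine cells and glia, was 91.2 ± 13.8 against 95.7 ± 5.83 and did not pass (-0.07, SE 0.11). The dopamine and serotonin carriers Slc6a3 and Slc6a4 differed by 0.01 and 0.09 and did not pass. Slc6a20a and Slc6a20b are near-identical copies whose probe sets may share signal, and neither passed, though Slc6a20b passed as lower without GFP-positive replicate 3 (-0.27, adjusted p = 0.0487).

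Of the 13 genes of the Slc17, Slc32 and Slc36 families, which hold vesicular, lysosomal and other carriers, 1 passed. Slc32a1, which loads GABA and glycine into vesicles, was dim at 9.74, 12.3 and 12.1 against 12.7, 19.6 and 16.98. It did not pass (-0.24, SE 0.10), though its arrays did not overlap. The vesicular glutamate carriers Slc17a6 (VGLUT2) and Slc17a7 (VGLUT1), textbook markers of excitatory neurons, had mean intensities of 82.5 against 70.5 and 38.3 against 32.7, and neither passed (0.19, SE 0.08, and 0.15, SE 0.08). The arrays of both did not overlap, and Slc17a6 passed as higher with array weights (0.27, adjusted p = 0.0278). For 4 of the 8 Slc17 genes every GFP-positive array was brighter than every GFP-negative array (50.0%, against 22.2% of all genes). Slc17a1, a phosphate and urate carrier, was the 1 of the 8 that passed, as lower (12.5%, against 11.9% of all genes). It read 39.0, 47.2 and 47.5 against 70.3, 66.5 and 77.5 (-0.53, SE 0.09, adjusted p = 0.0192), and its call ended when any array other than GFP-positive replicate 3 was left out, with adjusted p from 0.0519 to 0.0789. Slc17a3, read by a probe set that may match several transcripts, was 142, 161 and 141 against 97.8, 131 and 163 and did not pass (0.19, SE 0.17). Slc17a4 did not pass (0.31), except as higher without GFP-positive replicate 3 (0.39, adjusted p = 0.048) and with array weights (0.32, adjusted p = 0.024). The dim Slc17a2 did not pass either (0.22), except as higher under 3 alternatives. These were array weights (adjusted p = 0.0333), a robust limma-trend fit (adjusted p = 0.0358) and a pseudocount of 1 (adjusted p = 0.0416). Of the 4 proton-coupled Slc36 carriers none passed. Their brightest, Slc36a1 of the lysosome, read 189, 141 and 183 against 143.5, 131 and 138 (0.28, SE 0.12).

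**Figure D3:**
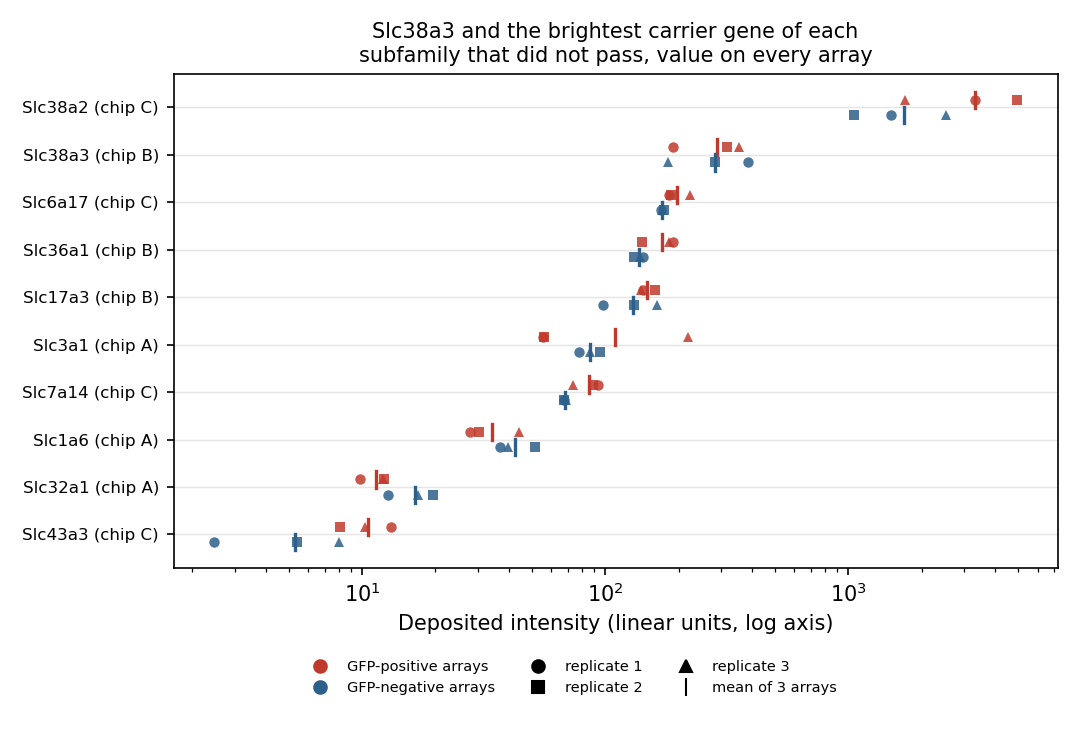
Intensity on every array (log axis) is shown for Slc38a3 and for the brightest gene of each subfamily that did not pass; symbols are single arrays by replicate number, and bars are means of 3 arrays. Slc38a3 overlaps between populations, and GFP-positive replicate 3 stands alone for Slc3a1 at 218.

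The choice of probe set decided several of these calls. Of the 64 genes 33 had more than 1 probe set, and 12 of these passed by the brightest. For 3 of the 12, Slc1a3, Slc1a5 and Slc43a2, another probe set passed in the same direction, and for the other 9 none did. No probe set passed in the opposite direction. A chip A probe set for Slc7a1 was dim and flat at 40.4 ± 3.98 against 39.2 ± 3.47 (0.03, SE 0.09), whereas the one on chip B differed by 3.56. Slc1a2 was likewise flat by a dim probe set on chip A (0.02, SE 0.06), and on chip C it was 50.5 ± 6.21 against 83.0 ± 17.5 (-0.56, adjusted p = 0.0673). A dim chip A probe set for Slc1a5 did not pass (0.27, SE 0.12), at 20.98, 32.4 and 22.8 against 17.7, 20.2 and 16.5, without overlap. Its chip C probe sets, which passed at 2.16 and 1.80, both carry the suffix of probe sets that may match several transcripts. The brightest probe set was chosen across chips whose tables were scaled separately.

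**Figure D4:**
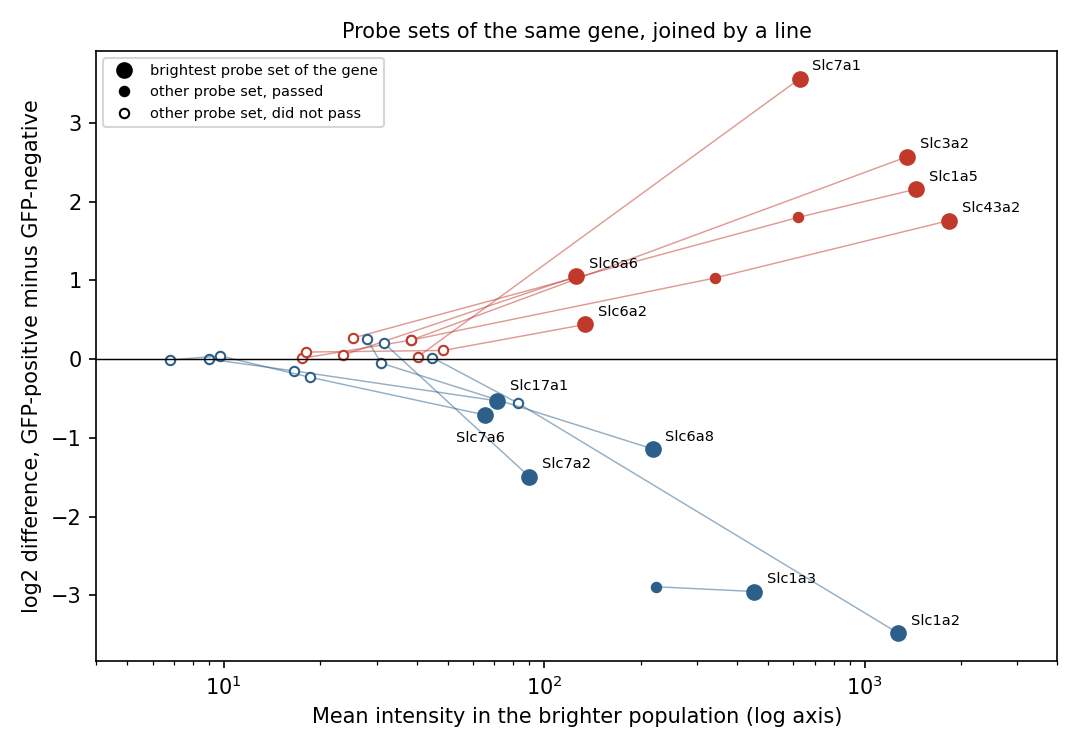
Each point is 1 probe set of a gene that passed and has more than 1, with its mean intensity in the brighter population on the x axis (log scale) and its log2 difference on the y axis; lines join probe sets of the same gene. Most second probe sets are open points, which did not pass, and lie below 100 intensity units near 0.

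Enzymes and carriers that handle the same amino acids were read beside the carriers, in 6 lists with 69 measured genes in all. Of these, 7 were higher (10.1%) and 10 lower (14.5%), shares close to the 9.83% and 11.9% of all genes, and their median difference was -0.01. For taurine, Csad, an enzyme of its synthesis, was 436, 421 and 366 against 159.9, 149.8 and 140.2 (1.35, adjusted p = 0.000446), beside the higher taurine carrier Slc6a6. For creatine, the synthetic enzyme Gatm was 509.9, 389 and 334 against 11.8, 13.3 and 15.2 (3.84, adjusted p = 2.88e-05). It was read by a probe set that may match several transcripts. The creatine carrier Slc6a8 was lower only by the narrow call described above (adjusted p = 0.0499). For GABA and glutamate 1 of 10 enzymes passed, as lower (10.0%, against 11.9% of all genes). It was Aldh5a1 of GABA breakdown (-2.75, adjusted p = 0.000202), beside the lower GABA carrier Slc6a11. GFP-positive replicate 3 stood apart for Glul and Got2, which did not pass. Glul was 135.7, 156 and 986 against 117, 142 and 131, and Got2 was 185, 216 and 6536 against 1126, 1302 and 812. For glycine and serine 3 of 9 were lower (33.3%, against 11.9% of all genes) and none higher. The glycine-cleaving enzyme Gldc was at -2.31 (adjusted p = 0.000344), beside the glycine carrier Slc6a9 at -0.07.

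In the list of other amino acid enzymes 4 of 20 were higher and 5 lower (20.0% and 25.0%, against 9.83% and 11.9% of all genes). Bcat1, which transaminates branched-chain amino acids such as leucine, was 75.6, 83.0 and 113.5 against 534, 472 and 355 (-2.14, adjusted p = 0.00108), where Slc7a5 and Slc43a2 were higher. Cth, an enzyme of cysteine synthesis, was lower (-2.26, adjusted p = 0.00101). None of 5 glutathione genes passed. Among peptide and transmitter carriers of other families 2 of 12 were higher and 1 lower (16.7% and 8.33%, against 9.83% and 11.9% of all genes). The lower one was the peptide carrier Slc15a2 (-2.23, adjusted p = 0.000232). Of 13 genes of the amino acid response, the stress programme driven by ATF4, 1 passed, Eif4ebp1, as higher (0.68, adjusted p = 0.0043). Its share of the list, 7.69%, was near the 9.83% of all genes. Atf4 itself was 154, 374 and 283 against 401, 295 and 392.4 (-0.47, adjusted p = 0.388), with overlap, and Ddit3 was -1.07 (adjusted p = 0.0733).

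The amino acid response acts through a DNA element to which ATF4 and C/EBP factors bind, and several carriers are textbook targets. RefSeq promoter windows (GRCm38.p6, 250 bases before to 50 after a start site) were found for 48 of the 64 genes. Among the genes that passed, Slc7a5, Slc1a5, Slc6a6, Slc38a1, Slc7a2, Slc6a8, Slc6a15, Slc6a2 and Slc7a4 had no window and were not searched. The core letters TGATGNAA, where N is any base, were searched on both strands and occurred in 5 of 70 windows of these genes, in 4 genes, and in 3.97% of all 32851 windows. The 4 genes were Slc1a4 and Slc7a7, which were higher, Slc17a1, which was lower, and Slc7a11, which did not pass. Within a window no matches overlapped, but windows of a gene can overlap, and 1 Slc7a7 match lies in both of the Slc7a7 windows counted. The windows of Slc1a4, Slc7a7 and Slc7a11 are shown because they hold the element, and that of Slc38a5 because it is the gene with the largest rise and has no match in this window. Capitals mark each match, and each sequence is written 5′ to 3′ on the strand of the gene.
Slc38a5, chrX:8271131-8271430, plus strand: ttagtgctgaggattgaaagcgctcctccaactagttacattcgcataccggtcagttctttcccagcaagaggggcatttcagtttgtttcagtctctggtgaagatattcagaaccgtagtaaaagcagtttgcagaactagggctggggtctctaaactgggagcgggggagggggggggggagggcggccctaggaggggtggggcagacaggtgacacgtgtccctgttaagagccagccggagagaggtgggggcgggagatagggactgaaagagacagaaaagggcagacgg
Slc1a4, chr11:20332664-20332963, minus strand: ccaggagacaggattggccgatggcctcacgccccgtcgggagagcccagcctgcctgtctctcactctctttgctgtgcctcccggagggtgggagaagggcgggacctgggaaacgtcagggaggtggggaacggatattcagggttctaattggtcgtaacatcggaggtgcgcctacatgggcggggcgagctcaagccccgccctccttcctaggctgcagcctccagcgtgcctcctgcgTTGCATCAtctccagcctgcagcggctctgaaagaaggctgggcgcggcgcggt
Slc7a7, chr14:54417895-54418194, minus strand: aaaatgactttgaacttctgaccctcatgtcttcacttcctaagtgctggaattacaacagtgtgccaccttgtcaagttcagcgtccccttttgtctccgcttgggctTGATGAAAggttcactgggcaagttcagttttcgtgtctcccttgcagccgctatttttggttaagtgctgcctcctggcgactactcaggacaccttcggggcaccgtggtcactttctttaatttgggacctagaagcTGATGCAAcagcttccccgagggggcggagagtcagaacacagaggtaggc
Slc7a11, chr3:50443564-50443863, minus strand: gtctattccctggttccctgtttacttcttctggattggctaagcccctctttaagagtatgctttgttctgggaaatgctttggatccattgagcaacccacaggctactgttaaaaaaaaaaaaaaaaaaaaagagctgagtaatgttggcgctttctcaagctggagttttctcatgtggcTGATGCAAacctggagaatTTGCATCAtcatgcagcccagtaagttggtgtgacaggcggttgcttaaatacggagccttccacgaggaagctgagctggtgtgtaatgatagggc
The Slc7a11 window held a match on each strand, and the Slc7a7 window, the first of 5 listed for that gene, held 2 on the gene's strand. Such matches are a description of letters and say nothing of binding in these cells.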

How the data were processed

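Retinal cells of both populations were read on 18 one-colour arrays of the MGU74v2 series, 3 per population and chip, grouped by sample title. The values deposited by the authors are linear intensities per probe set, and their probe summary, background correction and scaling are not given in the sources used here. Values of dim probe sets may be background, and no detection calls were used. Symbols came from the platform annotation, checked by Entrez identifier against RefSeq, with 0 changes. Each chip was fitted alone in R 4.3.3 by limma 3.58.1 (two-sided lmFit and eBayes fits without a block) on log2 of intensity plus 16, and p-values were adjusted per chip by Benjamini-Hochberg and called under 0.05.

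A gene was read by the probe set with the highest mean log2 level over the 3 chips. Values on every array were given for Slc38a5 and Slc38a3, for the 8 largest differences in each direction among genes that passed without overlap, and in each subfamily for the largest difference that passed and the brightest gene that did not; others are given by means or differences. Genes, lists and rules were chosen with earlier results of these data known. On simulated data with 200 changed probe sets per chip, the fit found, for chips A, B and C in that order, 80%, 90% and 85% of log2 changes of 1 and 95%, 99% and 96% of log2 changes of 2. It made 11, 14 and 11 false calls. The simulated noise was independent, with the same spread on every array and no array standing apart, so these shares need not hold for the real arrays. Replicate numbers were not treated as pairs. Alternatives covered normalization, pseudocount, filters, threshold, probe set, replicate block, array weights and each array left out in turn.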

Additional observations from a re-analysis of the deposited data

How the results depend on the processing

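The count of higher genes was 12 and lay between 8 and 12 in 13 of 14 alternatives with all arrays, and the count of lower genes was 9 and lay between 6 and 11 in all 14. Array weights raised the higher count to 19. With single arrays left out, the counts ran from 10 to 16 and from 6 to 13. The replicate block gave 10 and 7, ending the calls of Slc17a1 (adjusted p = 0.0622), Slc6a2 (0.0591), Slc6a8 (0.142) and Slc7a4 (0.0988). Deviations of same-numbered arrays from their population means correlated between -0.37 and 0.29, and were positive on each chip for replicate 1 only. Deviations of 3 arrays from their own mean cancel, so these correlations cannot decide whether the numbers pair the arrays. Whether a call lost with the replicate block marks a weaker difference was not tested. GFP-positive replicate 3 correlated best with GFP-negative replicate 2 on each chip (0.38 to 0.44), not with its own number, and the labels say nothing of such a match.

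Differences changed sign as follows. Slc38a3 was -0.05 without GFP-positive replicate 2, -0.13 without GFP-positive replicate 3 and -0.23 without GFP-negative replicate 3, within a range of -0.23 to 0.29 over the arrays left out. Slc3a1 was -0.38 with array weights, -0.51 without GFP-positive replicate 3 and 0.00 without GFP-negative replicate 1, within a range of -0.51 to 0.35. By the brightest probe set on the first chip that holds the gene, Slc1a2 was 0.02, Slc7a2 0.20 and Slc7a14 -0.56, with none called, and Slc7a1 (0.03), Slc1a5 (0.27) and Slc17a1 (-0.15) were not called either. The cause was not tested. Slc38a5, Slc7a5, Slc7a7, Slc3a2, Slc43a2, Slc1a3, Slc6a11 and Slc38a1 kept direction and call under each of the 19 alternatives run on each of them.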
